A study of Mus musculus with 2 samples.

Results

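The 38 genes described here are a fixed set of cell cycle genes, taken by symbol from the 56893 named genes of single-cell RNA libraries of mouse alveolar bone, the jaw bone that holds the tooth roots. All 38 had UMIs, that is single counted RNA molecules, in called cells of both libraries. They were counted here by cell type, each library on its own, together with the share of cells that carry several of them. The study pulled the first molar of C57BL/6J mice, 6 to 8 weeks old, with a coil spring at a constant 25 g. Control mice of the same strain and age carried the attached spring without force. The molar socket was opened on day 7 and bone from within 1 mm of it was taken from 12 mice, pooled from 6 mice per group. The tissue was digested for 60 minutes and red cells were lysed. The labels of the 2 libraries, called library 1 and library 2, do not say which of them received force, so they were not compared as treatment and control.

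A dividing cell first copies its DNA and then shares it out between daughter cells. In G1 phase the MCM helicase is loaded at replication origins by Cdc6 and Cdt1, and S phase follows with DNA synthesis. In G2 and M phase cyclin B with the kinase Cdk1 drives chromosome condensation, spindle assembly and division, and the anaphase-promoting complex then destroys the cyclins. Of the 38 genes, 15 act in origin licensing, DNA synthesis and nucleotide supply and are called the replication genes, and 23 act in G2 and mitosis and are called the mitosis genes. In bone marrow, which fills the spaces of alveolar bone, the blood-forming precursors divide fast, and their mature progeny mostly do not.

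The replication and mitosis genes differed in the short motifs near their transcription starts, so a few starts are shown before the expression values. Promoters of 250 bases before to 50 bases after the start were taken from RefSeq on build GRCm38.p6 and were found for 32 of the 38 genes. Mcm4, Gins2, Ccne2, Ccna2, Aurkb and Tpx2 were not among the promoters used. The motifs searched on both strands were TTTGAA, the cell cycle homology region (CHR), the box CCAAT, and the E2F sites TTTCCCGC, TTTGGCGC, TTTCGCGC and TTTGCCGC. The CHR was present in 15 of 20 mitosis promoters (75%) and in 1 of 12 replication promoters (8.33%, Mcm2), with 20.2% of the 27025 genes of the promoter set holding it. An E2F site was present in 1 of 20 mitosis promoters (5%, Cdk1) and in 6 of 12 replication promoters (50%), with 2.605% of all genes holding one. The 6 were Cdc6, Cdt1, Mcm3, Mcm5, Mcm6 and Mcm7. CCAAT was present in 18 of 20 mitosis promoters (90%) and in 8 of 12 replication promoters (66.7%), against 41.1% of all genes. A match describes the letters of the window and not a bound site.

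The last 120 bases before the start are given for 6 genes, from 5′ to 3′ on the strand of the gene, with the motifs in capitals. Mcm6, a helicase subunit, stands for the replication genes with E2F sites, and its first 2 sites overlap (chr1:128359706-128359825, minus strand). The other 5 stand for the mitosis genes and each holds at least 1 CHR and 1 CCAAT box. They are Top2a (chr11:99024190-99024309, minus strand), Cdc20 (chr4:118437344-118437463, minus strand) and Ube2c (chr2:164769809-164769928, plus strand), with Kif11 (chr19:37376262-37376381, plus strand) and Cdk1 (chr10:69352913-69353032, minus strand). The E2F site of Cdk1 lies farther upstream, 131 bases before the start.
Mcm6: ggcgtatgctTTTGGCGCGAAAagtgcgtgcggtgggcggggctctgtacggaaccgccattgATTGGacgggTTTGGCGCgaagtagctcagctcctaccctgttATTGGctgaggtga
Top2a: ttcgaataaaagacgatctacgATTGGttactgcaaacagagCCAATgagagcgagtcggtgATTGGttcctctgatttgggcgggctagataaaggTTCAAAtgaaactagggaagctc
Cdc20: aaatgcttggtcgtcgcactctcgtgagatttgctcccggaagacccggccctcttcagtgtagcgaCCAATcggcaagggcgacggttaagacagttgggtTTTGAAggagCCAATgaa
Ube2c: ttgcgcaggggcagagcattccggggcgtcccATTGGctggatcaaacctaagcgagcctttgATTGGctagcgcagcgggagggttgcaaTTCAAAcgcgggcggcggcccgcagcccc
Kif11: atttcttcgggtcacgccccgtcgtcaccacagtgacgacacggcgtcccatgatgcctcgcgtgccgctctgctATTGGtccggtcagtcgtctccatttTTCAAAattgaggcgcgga
Cdk1: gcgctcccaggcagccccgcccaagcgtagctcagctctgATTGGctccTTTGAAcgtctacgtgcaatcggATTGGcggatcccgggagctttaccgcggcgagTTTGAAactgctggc

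After filtering, 9373 cells of library 1 and 11727 cells of library 2 remained, and their median depths were 3257 and 4413 UMIs. The cells formed 29 clusters, built without the cell cycle and haemoglobin genes, and 26 of them could be named from fixed marker lists. A fibroblast or periodontal ligament-like cluster was led by Osr2 but also by the immediate early genes Egr1, Fos and Fosb, with none of its markers among its 10 leading genes. The libraries shared 70 cell barcodes. A cell was called cycling if it held UMIs of at least 3 different genes of the set after it had been thinned to 1000 UMIs, which gives every cell the same depth. This call is a range of a score and not a cell type. No test was made, since each pool of mice gave a single library. Intervals are exact 95% Poisson limits for UMI levels and exact 95% Clopper-Pearson limits for shares, and they cover counting error only.

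Cycling cells made up 17.3% of library 1, with 1544 of 8917 cells (16.5 to 18.1), and 21.0% of library 2, with 2454 of 11680 cells (20.3 to 21.8). A cycling cell held a median of 6 genes of the set, and the most held 17 in library 1 and 21 in library 2. The call rests near its limit for some cells, since 314 cells of library 1 and 453 of library 2 had exactly 3 genes and 786 and 1090 cells had exactly 2. In library 1, 79.9% of cycling cells carried replication as well as mitosis genes, 15.5% carried mitosis genes alone and 4.66% replication genes alone. In library 2 these shares were 81.2%, 14.3% and 4.48%. Thinning left out 456 cells of library 1 and 47 of library 2. Without thinning the shares were 38.5% and 45.4%. The full UMI count had a median of 6839.5 in cycling cells and 3129 in other cells of library 1, and 7540.5 in cycling cells and 3990.5 in other cells of library 2.

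The libraries hold their classes in different numbers. The mean over 26 classes, each weighted equally, was 21.1% in library 1 and 21.7% in library 2, and the median over them was 6.95% and 13.4%. With the class sizes of the other library, library 1 came to 22.3% and library 2 to 16.95%. Cells set aside for a high doublet score were also often cycling, at 25.1% (21.1 to 29.5) in library 1 and 40.6% (36.6 to 44.6) in library 2.

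Precursors of red cells and neutrophils had the highest cycling shares in both libraries. Erythroid-like cells of the cluster led by Car1, a carbonic anhydrase of young red cells, were nearly all cycling, with 115 of 121 cells (95.0%, 89.5 to 98.2) in library 1 and 494 of 521 cells (94.8%, 92.5 to 96.6) in library 2. Immature neutrophil-like cells led by Camp, which encodes an antimicrobial granule peptide, followed with 458 of 541 cells (84.7%, 81.3 to 87.6) and 471 of 573 cells (82.2%, 78.8 to 85.2). Granulocyte-monocyte progenitor-like cells held 75.2% (69.0 to 80.8) and 81.7% (78.0 to 85.0), and their interval overlapped that of the Camp cluster in library 2 but not in library 1. These 3 classes together supplied many of the cycling cells. The Camp cluster held 29.7% of the cycling cells of library 1 and 19.2% of those of library 2, the progenitor-like cells 10.8% and 16.7%, and the Car1 cluster 7.45% and 20.1%.

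B-cell precursors fell into 2 clusters with different shares. The cluster led by Vpreb1b, a surrogate light chain gene of the earliest precursors, had 56.6% cycling cells in library 1 (47.6 to 65.3) and 47.6% in library 2 (37.8 to 57.6). The cluster led by Vpreb3 had 39.6% (35.2 to 44.1) and 28.3% (25.3 to 31.4), below the Vpreb1b cluster in each library without overlap of the intervals. Mature B-like cells had 7.196% (4.87 to 10.2) and 13.1% (10.3 to 16.4). Thus both precursor clusters lay above mature B-like cells in each library.

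Stem or progenitor-like cells, a cluster led by the eosinophil granule gene Prg2, had 34.9% cycling cells (27.7 to 42.7) in library 1 and 41.7% (36.3 to 47.1) in library 2. Monocyte-like cells had 30.3% (26.1 to 34.8) and 31.2% (27.5 to 35.2), and megakaryocyte-like cells 30.1% (24.5 to 36.1) and 20.4% (16.5 to 24.9). These 3 classes overlapped each other in library 1, and in library 2 they differed in this order. T-cell-like cells had 16.4% and 13.6%, basophil or mast-like cells 16.1% and 18.0%, and plasmacytoid dendritic-like cells 12.5% and 14.47%.

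Clusters that share a name stood far apart in 2 cases. The neutrophil-like cluster led by Krt81, named like the Camp cluster from immature neutrophil markers, had 3.82% cycling cells in library 1 (2.59 to 5.40) and 5.12% in library 2 (3.68 to 6.90). The erythroid-like cluster led by Slfn14 had 11.5% (2.45 to 30.2) and 7.52% (4.44 to 11.8), against the nearly complete cycling of the Car1 cluster. Haemoglobin fills most of the UMIs of the Slfn14 cells. When cells were thinned to 1000 UMIs other than haemoglobin, a setting chosen with the values in view, 2 of 4 cells of the Slfn14 cluster in library 1 (50%) and 46 of 95 cells in library 2 (48.4%) were cycling. This setting kept only cells with that many other UMIs, 4 and 95 against 26 and 226 cells before. Its shares thus describe a selected part of the cluster.

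**Figure D1:**
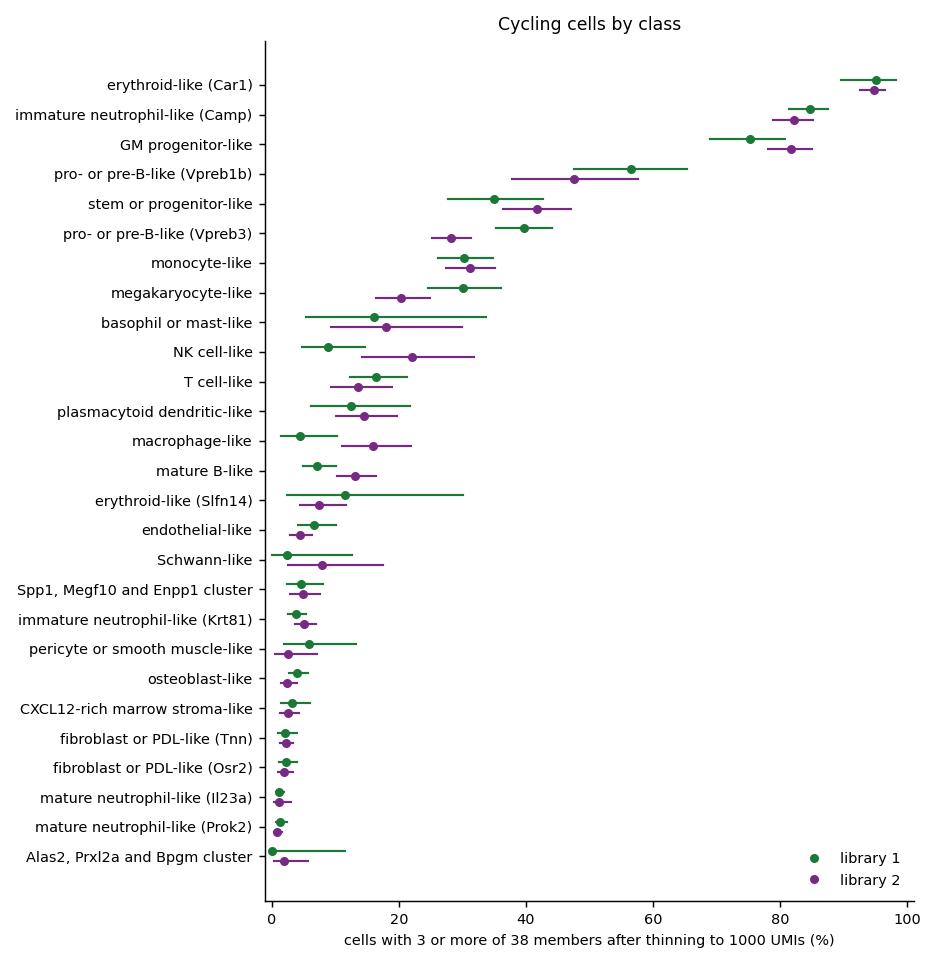
Share of cycling cells (x axis, percent) in each of the 27 clusters with at least 30 cells in both libraries (y axis), with 1 point per library and bars for exact 95% Clopper-Pearson limits. The Car1 erythroid-like cells sit at about 95% in both libraries, and the stromal and mature neutrophil-like clusters sit at the low end.

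The stromal and bone-forming classes had low cycling shares. Mature neutrophils are known to have left the cell cycle, so their share was taken as the background of the call. It was 24 of 1955 cells (1.23%, 0.788 to 1.82) in library 1 and 11 of 1255 cells (0.876%, 0.438 to 1.56) in library 2, with 4.72% and 9.20% before thinning. All 5 granulocyte-monocyte progenitor markers were present in these cycling cells and summed to 685 CPM, against 159 CPM in other mature neutrophil-like cells of library 1, and to 1226 CPM against 250.2 CPM in library 2. Their part in the background was not tested. The 6 stromal and bone-forming clusters together had 71 of 2230 cells (3.18%, 2.49 to 3.999) and 87 of 3304 cells (2.63%, 2.11 to 3.24), above that background in each library. Their erythroid markers, 8 and 9 of 10 present, summed to 25.7 CPM in cycling and 18.9 CPM in other cells of library 1 and to 155 CPM in cycling and 36.9 CPM in other cells of library 2. Haemoglobin made up 0.123% in cycling and 0.0601% in other cells of library 1, and 0.656% in cycling and 0.476% in other cells of library 2. Pcna, which counts toward the call, stood at 190.4 and 188 CPM in the stromal clusters and at 63.9 and 58.9 CPM in mature neutrophil-like cells. The background is thus not matched for Pcna. The part of Pcna and of the erythroid transcripts in the stromal share was not tested. The median depth of the stromal and bone-forming clusters was 5557 and 5483 UMIs, against 2014.5 and 2757 UMIs in mature neutrophil-like cells. Before thinning the stromal share was 43.1% and 39.1%. Osteoblast-like cells had 31 of 765 cells (4.05%, 2.77 to 5.70) in library 1 and 15 of 605 cells (2.48%, 1.39 to 4.06) in library 2. The fibroblast or periodontal ligament-like cluster led by Tnn, a matrix gene of the ligament, had 2.10% (0.966 to 3.95) and 2.20% (1.37 to 3.35), and the Osr2 cluster 2.22% (1.11 to 3.93) and 1.90% (0.9505 to 3.37). The intervals of these 2 clusters overlapped the background in both libraries.

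Among the other classes of fixed tissue, endothelial-like cells had 6.71% (4.15 to 10.2) cycling cells in library 1 and 4.39% (2.89 to 6.37) in library 2, above the background in both. CXCL12-rich marrow stroma-like cells had 3.23% (1.49 to 6.04) and 2.54% (1.36 to 4.31). An unnamed cluster led by Spp1, Megf10 and Enpp1 had 4.64% (2.34 to 8.15) and 4.92% (2.94 to 7.66), also above the background in both. Pcna made up 59.8% and 57.9% of the replication UMIs of endothelial-like cells and 50.3% and 50.3% of those of the Spp1 cluster. In mature neutrophil-like cells it made up 43.5% and 43.0%. The part of Pcna in these shares was not tested. Osteoclast-like cells had 5 of 42 cells (11.9%, 3.98 to 25.6) in library 1 and 0 of 26 cells in library 2, which allows a share of up to 13.2%. Those 5 cells had a median of 35394 UMIs, against 3691 in the other osteoclast-like cells, and median doublet scores were 0.071 and 0.048. Granulocyte-monocyte progenitor markers summed to 532 CPM in them and 172 CPM in the others. Immature neutrophil and erythroid markers were also higher, and pro- or pre-B and megakaryocyte markers lower. The part of depth and of these transcripts in the share was not tested.

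The summed level of the set was highest in the Car1 cluster in both libraries. Levels are given as CPM, the UMIs of a gene per 1000000 UMIs of named genes in that class and library. The 38 genes summed to 12262 CPM (12011 to 12516) in the Car1 cluster of library 1 and 16005 CPM (15869 to 16142) in that of library 2, or 14181 and 24405 CPM when haemoglobin was left out of the total. The Vpreb3 cluster came next in library 1 with 8592 CPM and the Vpreb1b cluster in library 2 with 8262 CPM. The Vpreb3 cluster of library 2 had 7645 CPM. In both libraries it lay above the Camp cluster, at 7490 and 6830 CPM, with a lower share of cycling cells. Mature neutrophil-like cells had 364 and 366 CPM. Droplets with 10 to 100 UMIs, which hold mainly free RNA, had 2584 and 3338 CPM, close to the 2791 and 3449 CPM of all cells.

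Single genes were often highest in the same class. Of 38 genes, 27 peaked in 1 class shared by the libraries, against 51.7% of the 13508 genes measured, among the 27 clusters with enough cells. In 22 genes this class was the Car1 cluster, against 2.81% of all measured genes. For none of the 38 was the leading class 2-fold or more ahead of the next one in each library, as it was for 9.14% of measured genes. Within library 2 alone, the Car1 cluster led by 2-fold or more for 12 of the 38 genes, among them Hmmr, Mki67, Prc1 and Birc5, against 15.3% of measured genes with such a lead of any class. Within library 1 alone it did so for 1 gene, Ccne1, against 15.5%. Both shares are for a lead of any class, and the share for the Car1 cluster alone was not counted. The genes named here were chosen after their values were seen. The other 5 with a shared highest class were Mcm3, Mcm5 and Pcna in the Vpreb1b cluster, Top2a in the Vpreb3 cluster and Ccne2 in the Camp cluster.

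**Figure D2:**
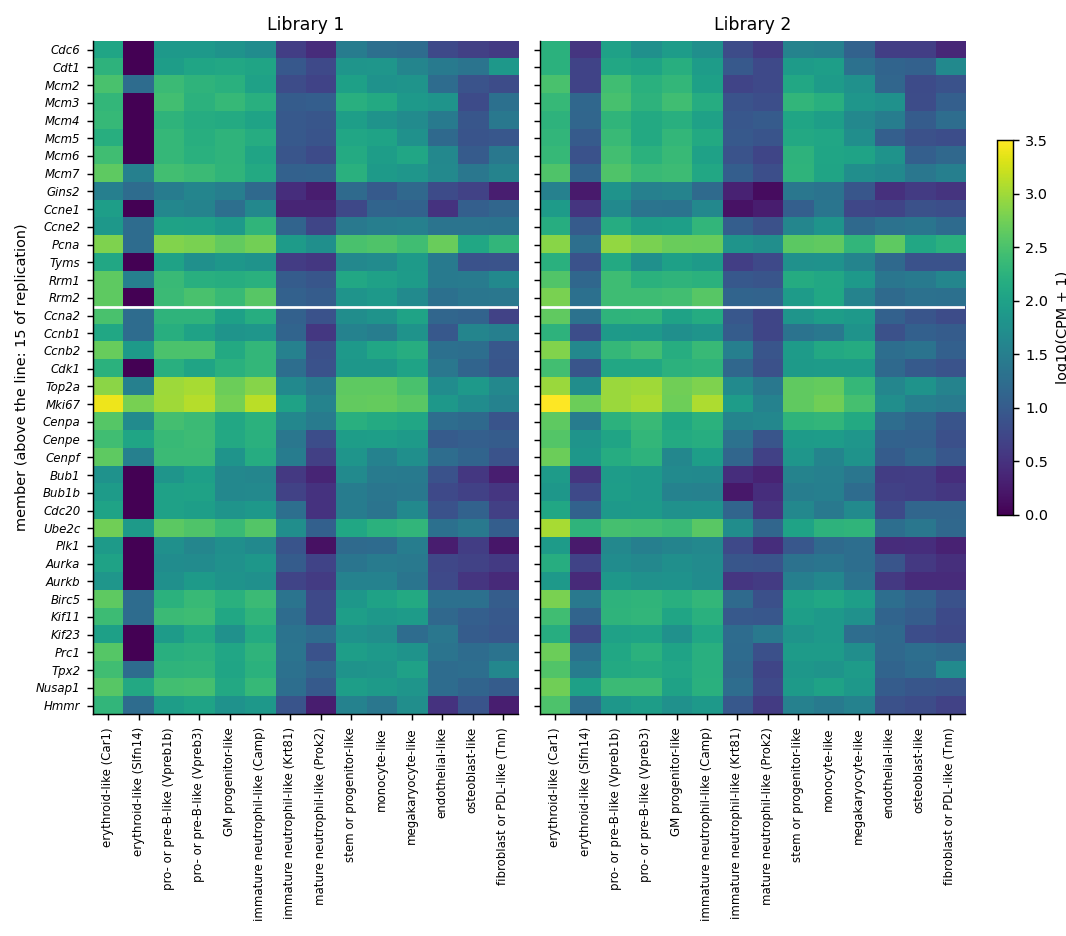
Level of each of the 38 genes (rows, replication genes above the line) in 14 clusters (columns) of each library, as log10(CPM + 1). The Car1, Vpreb1b, Vpreb3, progenitor and Camp columns are bright for nearly all genes. The mature neutrophil, endothelial, osteoblast and fibroblast columns are darker for most genes, and Pcna is the highest gene in each of them.

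The 11 genes of origin licensing and entry into S phase were Cdc6, Cdt1, Mcm2, Mcm3, Mcm4, Mcm5, Mcm6, Mcm7, Gins2, Ccne1 and Ccne2. Mcm7, the helicase subunit gene with the most UMIs of this list, stood at 431 CPM (386 to 481) in the Car1 cluster of library 1, ahead of the Vpreb1b cluster at 275 CPM. In library 2 Mcm7 was highest in the Vpreb1b cluster at 347 CPM (304 to 394), within counting error of the Car1 cluster at 342 CPM. Erythroid-like and early B-like cells thus shared the lead. Mcm4 went the same way, at 222 CPM (189 to 258) in the Car1 cluster of library 1 and 195 CPM (164 to 231) in the Vpreb1b cluster of library 2. Mcm6 stood at 265 CPM (229 to 305) in the Car1 cluster of library 1 and at 277 CPM (239.6 to 319.6) in the Vpreb1b cluster of library 2. The lead of Mcm4 over the next class lay within counting error in both libraries, and that of Mcm6 did so in library 1.

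Mcm3 and Mcm5, further subunits of the same ring, were highest in the Vpreb1b cluster in both libraries, with Mcm3 at 276 CPM (241 to 315) and 299 CPM (259.7 to 343). The lead of Mcm3 lay within counting error in library 2. Mcm5 stood in the Vpreb1b cluster at 212 CPM (181 to 247) and 233 CPM (198 to 272), and granulocyte-monocyte progenitor-like cells at 186 and 208 CPM lay within counting error of it. Gins2, a part of the active helicase, was highest in the Vpreb3 cluster of library 1 at 37.8 CPM (28.8 to 48.7) and in the Vpreb1b cluster of library 2 at 62.1 CPM (44.96 to 83.7). Its lead in library 1 lay within counting error. The E-type cyclins, which drive entry into S phase with Cdk2, went apart. Ccne1 was highest in the Car1 cluster, at 91.4 CPM (71.0 to 116) and 82.8 CPM (73.3 to 93.3). Ccne2 was the 1 gene of the set highest in the Camp cluster in both libraries, at 193 CPM (181 to 206) and 200.3 CPM (190.0 to 210.9), ahead of the next class at 104 and 152 CPM beyond counting error. Cdc6, Cdt1 and Mcm2 were highest in the Car1 cluster in both libraries, at 112, 181 and 309 CPM in library 1 and at 173, 172 and 307 CPM in library 2. The leads of Cdc6 in library 1, of Cdt1 in library 2 and of Mcm2 in both lay within counting error.

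The 4 genes of DNA synthesis and nucleotide supply were Pcna, Tyms, Rrm1 and Rrm2. Pcna, the sliding clamp of DNA polymerase that also serves DNA repair, stood at 684 CPM (628 to 744) in the Vpreb1b cluster of library 1 and at 857 CPM (789 to 929) in that of library 2. The Car1 cluster followed at 663 and 765 CPM, within counting error in both libraries. Pcna was less bound to cycling cells than the rest of the set. Only 54.6% of its UMIs in library 1 and 63.6% in library 2 lay in cycling cells, the lowest values of the 38 genes, and 6.04% and 5.82% of mature neutrophil-like cells had a UMI of it. The ribonucleotide reductase gene Rrm2, with 87.3% and 90.4% of its UMIs in cycling cells, stood at 425 CPM (379 to 474) and 626 CPM (599.8 to 654) in the Car1 cluster. Its partner Rrm1 stood there at 431 and 349.8 CPM and the thymidylate synthase gene Tyms at 125 and 168 CPM. The leads of Rrm2 in library 1 and of Tyms in both libraries lay within counting error.

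The 4 genes of cyclins and kinase of S, G2 and M phase were Ccna2, Ccnb1, Ccnb2 and Cdk1. Ccnb2, a B-type cyclin, stood at 481 CPM (433 to 534) in the Car1 cluster of library 1 and at 676 CPM (648 to 705) in that of library 2, ahead of the Vpreb3 cluster at 320.1 and 278 CPM. Ccnb1, the other B-type cyclin, was highest in the Vpreb1b cluster of library 1 at 153 CPM (127 to 183) and in the Car1 cluster of library 2 at 180 CPM (166 to 195). The lead of the Vpreb1b cluster over the Car1 cluster, at 119.6 CPM, lay within counting error. Cdk1, the mitotic kinase, was highest in the Camp cluster of library 1 at 205 CPM (192 to 218) and in the Car1 cluster of library 2 at 275 CPM (258 to 294). In library 1 the Car1 cluster lay within counting error of the Camp cluster. Ccna2, the cyclin of S and G2 phase, was highest in the Car1 cluster at 309 and 436 CPM, and 90.7% and 93.1% of its UMIs lay in cycling cells.

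The 5 genes of chromosome structure and the centromere were Top2a, Mki67, Cenpa, Cenpe and Cenpf. Mki67, which encodes the proliferation marker Ki-67 that coats mitotic chromosomes, stood at 2573 CPM (2459 to 2691) in the Car1 cluster of library 1 and at 3753 CPM (3687 to 3820) in that of library 2. The Camp cluster came next at 1390 and 1190 CPM. Mki67 was found in 60.8% and 62.6% of thinned cycling cells, more than any other gene of the set. Top2a, the topoisomerase that untangles copied DNA, was highest in the Vpreb3 cluster at 1111 CPM (1059.5 to 1164) and 1008 CPM (970 to 1048), and the Vpreb1b cluster at 942 CPM lay within counting error of it in library 2. Top2a was found in 50.7% and 51.1% of cycling cells. Cenpa, the centromeric histone gene, was highest in the Car1 cluster at 380.4 and 425 CPM, but 2.92% and 3.82% of mature neutrophil-like cells also held a UMI of it. Cenpe and Cenpf, of the outer kinetochore, were highest in the Car1 cluster in both libraries, Cenpe at 263 and 363 CPM and Cenpf at 425 and 515 CPM. The lead of Cenpe lay within counting error in library 1.

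The 4 genes of the spindle checkpoint and the exit from mitosis were Bub1, Bub1b, Cdc20 and Ube2c. Ube2c, the enzyme that passes ubiquitin to the targets of the anaphase-promoting complex, stood at 546 CPM (494 to 602) in the Car1 cluster of library 1 and at 1088 CPM (1053 to 1124) in that of library 2. The next class had 409 and 399 CPM. The checkpoint kinases had their highest values in B-cell precursors. Bub1 was highest in the Vpreb3 cluster of library 1 at 92.6 CPM (78.3 to 109) and in the Vpreb1b cluster of library 2 at 85.2 CPM (64.9 to 110.0). Bub1b was highest in the same 2 clusters at 104 CPM (88.7 to 121) and 88.1 CPM (67.4 to 113). Their leads lay within counting error of the next class in both libraries. Cdc20, an activator of the anaphase-promoting complex, was highest in the Car1 cluster at 105 and 120.3 CPM, with a lead within counting error in library 1.

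The 4 mitotic kinases and passenger genes were Plk1, Aurka, Aurkb and Birc5. Birc5, which encodes survivin of the chromosomal passenger complex, stood at 421 CPM (375 to 470.0) in the Car1 cluster of library 1 and at 620.1 CPM (594 to 648) in that of library 2, ahead of the Camp cluster at 239 and 207 CPM. Aurkb, the kinase of the same complex, had no shared highest class. It stood at 79.4 CPM (66.1 to 94.5) in the Vpreb3 cluster of library 1 and at 75.9 CPM (66.8 to 85.9) in the Car1 cluster of library 2, both within counting error of the next class. Plk1 and Aurka, which act at centrosomes and spindle poles, were highest in the Car1 cluster, with Plk1 at 80.7 and 83.4 CPM and Aurka at 102 and 151 CPM. The lead of Plk1 lay within counting error in library 1.

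The 6 genes of spindle motors, spindle assembly and cell division were Kif11, Kif23, Prc1, Tpx2, Nusap1 and Hmmr. Nusap1, which bundles spindle microtubules, stood at 383 CPM (339.9 to 430.3) in the Car1 cluster of library 1 and at 542 CPM (517 to 568) in that of library 2, ahead of the Vpreb3 cluster at 295 and 246 CPM. The motor gene Kif11 was highest in the Vpreb3 cluster of library 1 at 255 CPM (230.3 to 281) and in the Car1 cluster of library 2 at 266.7 CPM (249.4 to 284.9). Kif23, a motor of the division midzone, was highest in the Camp cluster of library 1 at 136 CPM (125 to 146) and in the Car1 cluster of library 2 at 152 CPM (139 to 166). In library 1 both leads lay within counting error. Prc1, Tpx2 and Hmmr were highest in the Car1 cluster in both libraries, at 371, 269 and 199 CPM in library 1 and at 518, 351 and 333 CPM in library 2.

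The balance of replication to mitosis genes differed between classes. The ratio of their summed UMIs was 0.604 in all cells of library 1 and 0.618 in all cells of library 2. Erythroid-like cells of the Slfn14 cluster had the lowest ratios, 0.105 from 8 replication and 76 mitosis UMIs and 0.1101 from 165 and 1499, and those of the Car1 cluster had 0.436 and 0.333. The Camp cluster had 0.456 and 0.483, against 0.723 and 0.894 in granulocyte-monocyte progenitor-like cells. The 6 stromal and bone-forming clusters together had 1.24 (1.198 to 1.29) and 1.38 (1.34 to 1.43), and endothelial-like cells 2.18 and 2.44. Free RNA of near-empty droplets had 0.604 and 0.591.

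A large part of the replication UMIs of tissue cells came from Pcna. It made up 45.7% and 47.9% of the replication UMIs of the stromal and bone-forming clusters and 59.8% and 57.9% of those of endothelial-like cells, against 24.3% and 21.9% in the Camp cluster. Without Pcna, again chosen with the values in view, the stromal ratio was 0.675 and 0.721, the endothelial ratio 0.876 and 1.03, and that of all cells 0.430 and 0.461. Osteoblast-like cells, 1 of the 6 pooled clusters, had lower ratios than the pool, 0.765 and 0.935 with Pcna. Without Pcna they had 0.454 (0.425 to 0.486) in library 1, which overlapped all cells (0.425 to 0.435), and 0.528 (0.485 to 0.575) in library 2. Pcna stood at 190.4 CPM (184 to 197) and 188 CPM (183 to 194) in the stromal clusters, against 63.9 CPM (57.0 to 71.5) and 58.9 CPM (51.6 to 66.8) in mature neutrophil-like cells. Mki67 did not show this gap, with 44.1 CPM (40.9 to 47.5) and 34.7 CPM (32.3 to 37.2) in stromal clusters and 39.7 CPM (34.3 to 45.8) and 36.2 CPM (30.6 to 42.6) in mature neutrophil-like cells. The intervals of Mki67 overlapped in both libraries. Mki67 does not stand for the rest of the set, and genes on each side were not counted. Top2a stood at 54.6 and 46.6 CPM in stromal clusters and at 29.0 and 23.6 CPM in mature neutrophil-like cells. Cdt1 stood at 37.2 and 29.1 CPM against 8.48 and 6.16 CPM. Cenpa went the other way, at 11.3 and 10.6 CPM against 31.0 and 39.4 CPM.

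**Figure D3:**
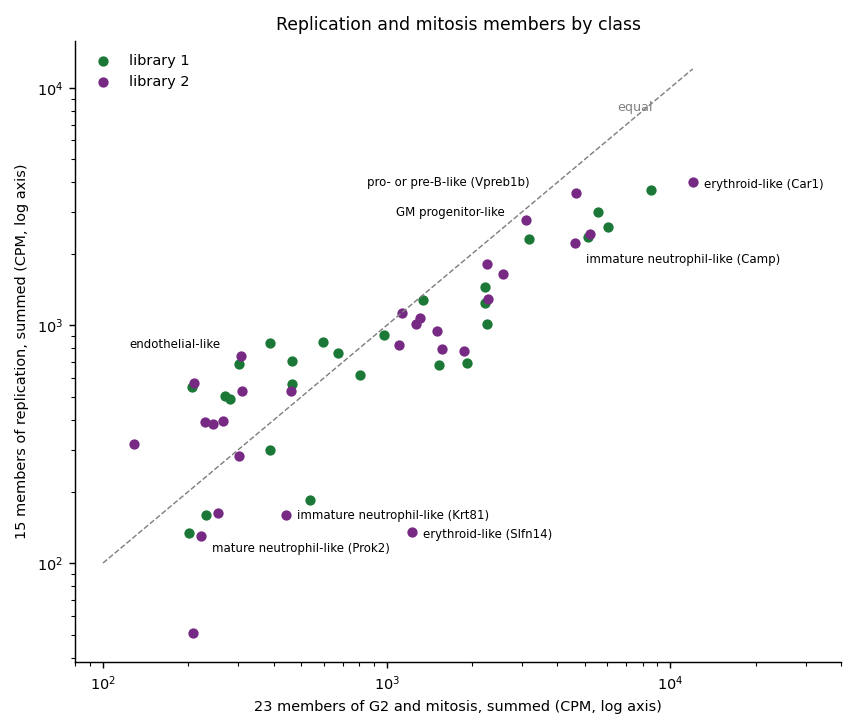
Summed level of the 15 replication genes (y axis, CPM, log axis) against that of the 23 mitosis genes (x axis, CPM, log axis), with 1 point per cluster and library where at least 100 UMIs of the set were counted. Points above the dashed line of equal levels are mostly tissue classes such as endothelial-like cells, and the Slfn14 erythroid-like point lies far below it.

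Along the neutrophil line the largest step lay between the Camp and the Krt81 clusters. The replication genes summed to 2303 CPM in granulocyte-monocyte progenitor-like cells, 2347 in the Camp cluster, 184 in the Krt81 cluster, and 133 and 159 in the Prok2 and Il23a clusters of mature neutrophil-like cells in library 1. In library 2 the same order gave 2780, 2223, 159, 130 and 163 CPM. The sums of the mitosis genes were 3183, 5143, 535, 201 and 231 CPM for library 1, and for library 2 they were 3111, 4607, 441, 222 and 255 CPM. The mitosis genes were thus higher in the Camp cluster than in progenitor-like cells, and the replication genes were at a like level in library 1 and lower in library 2. The Camp cluster lay above the Krt81 cluster 12.8-fold for replication and 9.60-fold for mitosis genes in library 1, and 14.0-fold and 10.4-fold in library 2. Both clusters were named from the same list of immature neutrophil markers.

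Haemoglobin, the oxygen carrier that fills maturing red cells, ordered the cell cycle genes of the erythroid clusters. All erythroid cells, including an unnamed cluster led by Alas2, Prxl2a and Bpgm, were divided by the share of their UMIs that came from 8 haemoglobin genes, and levels were taken as CPM of the UMIs other than haemoglobin. From under 1%, through 1 to 10%, 10 to 50% and 50 to 80%, to over 80% haemoglobin, the set summed to 6338, 19981, 27403, 18093 and 1923 CPM in library 1, and library 2 gave 7888, 17053, 30195, 28269 and 4131 CPM. The set was thus highest at an intermediate load of haemoglobin and low in the fullest cells. The bins held 42, 18, 74, 37 and 31 cells in library 1 and 61, 46, 248, 323 and 221 cells in library 2, so the bin of 1 to 10% in library 1 is thinly filled. The unnamed Alas2 cluster supplied 29 and 138 of the cells over 80%.

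The replication genes were lower relative to the mitosis genes at higher haemoglobin shares up to 80%. The ratio of replication to mitosis UMIs was 0.756, 0.483, 0.339 and 0.0974 over the first 4 bins of library 1 and 0.588, 0.504, 0.388 and 0.145 over those of library 2. The fullest bin had 0.550 in library 1, from 11 replication and 20 mitosis UMIs, and 0.174 in library 2. At 50 to 80% haemoglobin, 8 of the 23 mitosis genes in library 1 and 13 in library 2 had their highest level, and none of the 15 replication genes did in either library. Of all genes with at least 20 UMIs in these cells, 17.6% in library 1 and 13.2% in library 2 were highest there. Ccnb2, Cenpa, Cenpe, Ube2c, Tpx2 and Nusap1 were among these in both libraries. Without the thin bin, library 1 kept the fall of the ratio over the remaining 3 of these bins.

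On the same scale Pcna stood at 471, 1040, 1338, 182 and 372 over the 5 bins of library 1 and at 533, 955, 1654, 692 and 109 over those of library 2, and the last bin of library 1 rests on 6 UMIs. Mcm2 stood at 270, 446, 522 and 121 over the first 4 bins of library 1, with 0 UMIs in the fullest, and at 278, 573, 632, 189.8 and 30.4 in library 2. Both replication genes were thus highest at 10 to 50% in each library. Of the 15 replication genes, 7 in library 1 and 13 in library 2 were highest in that bin. The other 8 and 2 were highest at 1 to 10%. Of the 23 mitosis genes, 13 in library 1 and 10 in library 2 were highest at 10 to 50%. Ube2c stood at 188, 554, 1361, 1970 and 186 in library 1 and at 274, 662, 1808, 2919 and 1075 in library 2, highest at 50 to 80% in each. Mki67 stood at 808, 4080, 6835, 5182 and 248 in library 1 and at 1262, 3618, 7054, 7772 and 1027 in library 2, so it was highest at 10 to 50% in library 1, like Pcna and Mcm2, and at 50 to 80% in library 2.

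**Figure D4:**
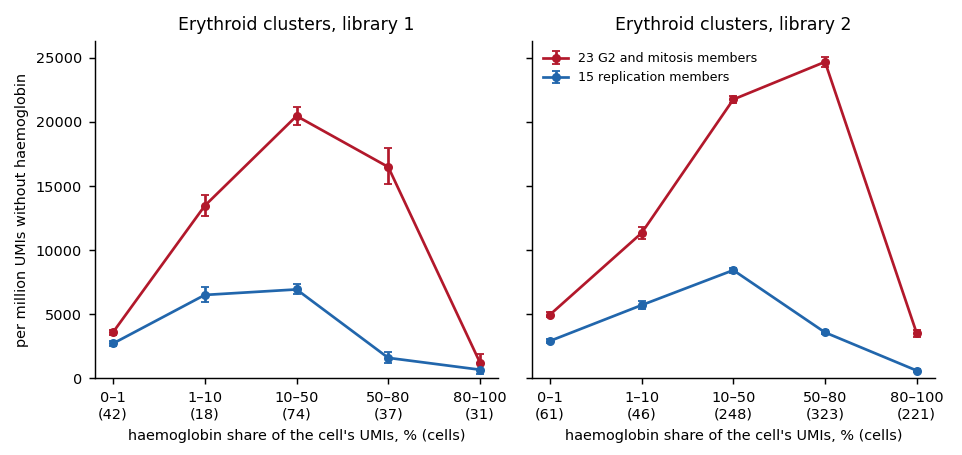
Summed level of the 23 mitosis and 15 replication genes (y axis, CPM of the UMIs other than haemoglobin) in erythroid cells binned by their haemoglobin share (x axis, percent, with the number of cells in parentheses), for each library, with exact 95% Poisson limits. The replication line drops between the 10 to 50% and the 50 to 80% bin in both libraries, while the mitosis line stays high up to 80%.

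Haemoglobin made up 0.746% of the UMIs of cycling cells and 0.598% of those of other cells in library 1, and 4.44% and 4.16% in library 2. Over 10% haemoglobin was found in 77 cycling cells (4.99%) of library 1 and 435 (17.7%) of library 2. In the Car1 and Slfn14 clusters together it made up 15.05% of the UMIs of cycling cells, against 35.3% of those of other cells in library 1, and 35.1% against 76.2% in library 2. Most of those other cells, 23 of 29 in library 1 and 209 of 236 in library 2, belonged to the Slfn14 cluster. Within the Car1 cluster haemoglobin made up 14.4% in cycling cells and 2.54% in the 6 other cells of library 1, and 34.4% in cycling cells and 35.0% in the 27 other cells of library 2. Within the Slfn14 cluster it made up 69.3% in the 3 cycling cells and 67.5% in other cells of library 1, and 62.7% in the 17 cycling cells and 79.0% in other cells of library 2. The gap of the pooled cells was thus not seen within the Car1 cluster of either library. The call was made on cells thinned with haemoglobin included, so a cell rich in haemoglobin kept fewer other UMIs. The call thus depends on the haemoglobin share. The gaps of the pooled cells and of the Slfn14 cluster in library 2 cannot be separated from this dependence. Thinning with haemoglobin included gave 17 of 226 cycling cells (7.52%) in the Slfn14 cluster of library 2. Thinning without it gave 46 of 95 (48.4%), among the cells with enough other UMIs. In the Camp cluster haemoglobin made up 0.0262% in cycling and 0.0274% in other cells of library 1. In library 2 it made up 0.206% in cycling and 0.475% in other cells.

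In several small classes the cycling cells of 1 of the libraries together held more RNA of another lineage, which in the case of haemoglobin lay in a few cells. Macrophage-like cells had 4.50% cycling cells in library 1 and 16.0% in library 2. In library 2 haemoglobin made up 7.56% of the UMIs of these 31 cells and 2.16% of those of the other 163, and all 10 erythroid markers were present, summing to 1194 CPM in cycling and 188 CPM in other cells. The medians per cell were 0.149% in cycling and 0.134% in other cells, and 4 of the 31 cycling cells had over 10%. Cycling NK-cell-like cells, 8.90% and 22.1% of their class, held immature neutrophil markers at 35534 CPM against 1628 CPM in other cells of library 1, with all 10 markers present. In library 2 they held haemoglobin at 4.74% against 0.263%, and 1 of 21 cells had over 10%. The 5 cycling Schwann-like cells of library 2 held all 5 progenitor markers of the granulocyte line at 29446 CPM, against 1251 CPM in the others. These 5 cells had 75019 UMIs in all and a median of 2117 per cell, so a few deep cells supplied most of their UMIs. In endothelial-like cells of library 2 the erythroid markers, 9 of 10 present, summed to 329.8 CPM in the 26 cycling cells and 25.6 CPM in the others, with haemoglobin at 1.23% and 0.160%, at medians of 0.122% and 0.116%, and 1 cycling cell had over 10%. The Spp1 cluster of library 2 had 466 CPM of them in cycling cells, with 7 of 10 present, and 97.5 CPM in other cells, and 1 of its 18 cycling cells had over 10% haemoglobin. The part of these transcripts in the calls was not tested. In library 1 the erythroid markers of endothelial-like cells were at 16.4 CPM in cycling and 17.7 CPM in other cells. Those of macrophage-like cells were at 67.3 CPM in the 5 cycling cells and 165 CPM in other cells there. The Spp1 cluster of library 1 had 8.49 CPM of them in cycling and 17.3 CPM in other cells. In library 2 the immature neutrophil markers of NK-cell-like cells were at 1099 CPM in cycling and 1653 CPM in other cells. The 1 cycling Schwann-like cell of library 1 had no UMIs of the 5 progenitor markers.

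Further cell cycle genes, outside the 38, were taken from 7 lists of 88 companion genes found in the files. They were compared between cycling and other cells within the 4 classes that had at least 100 cycling and 50 other cells in each library. A gene was called if it lay at least 2-fold higher, or lower, in both libraries. None of the companion genes was called lower in any of the 4 classes. Their cells were split by other genes of the same process, so a shift of the companions restates in part how the cells were chosen. In immature neutrophil-like cells of the Camp cluster, 48 of 84 tested companions were called higher, against 4.18% of 8797 tested genes, and 0.386% of tested genes were called lower. The median log2 ratio of the companions was 1.30 in library 1 and 1.32 in library 2, against 0.08 and 0.22 over all tested genes. In the Vpreb3 cluster 68 of 83 companions were called higher (8.01% of tested genes higher and 4.83% lower), with medians of 2.94 and 2.90 against -0.12 and -0.06 over all genes. In monocyte-like cells 64 of 84 were called higher (6.01% of tested genes higher and 3.44% lower), with medians of 1.98 and 2.21 against 0.19 and 0.08. In granulocyte-monocyte progenitor-like cells 7 of 83 were called higher (0.682% of tested genes higher and 0.122% lower), with medians of 0.69 and 0.49 against -0.03 and 0.01. The Car1 cluster was not compared, because it had 6 and 27 cells that were not cycling.

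By list, the mitotic machinery was called most often in the Camp cluster, with 21 of 25 genes higher, and replication machinery followed with 13 of 22. Smc2, a condensin subunit that compacts chromosomes, stood at 296 CPM in cycling and 59.1 CPM in other cells of library 1 and at 258 CPM in cycling and 74.5 CPM in other cells of library 2. Its log2 ratios were 2.31 ± 0.25 and 1.79 ± 0.16 (counting SE). Gmnn, which encodes geminin, the inhibitor of Cdt1 that prevents a second round of replication, stood at 131 CPM against 33.8 CPM in library 1 and at 116 CPM against 30.5 CPM in library 2, with log2 ratios of 1.92 ± 0.32 and 1.90 ± 0.25. Ranked by the smaller ratio of the libraries, they led the companions. Pttg1, which encodes securin, the guard of sister chromatids, stood at 22.1 CPM in cycling and 21.95 CPM in other cells of library 1, and at 16.1 CPM in cycling and 21.5 CPM in other cells of library 2. Pttg1 thus had log2 ratios of -0.04 ± 0.42 and -0.44 ± 0.33, unlike most of its list.

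D-type cyclins and their kinases, which respond to growth signals in G1, were not called in the Camp cluster, with 0 of 4 tested genes. Ccnd2 stood at 7.68 CPM in cycling and 13.5 CPM in other cells of library 1 and at 5.96 CPM in cycling and 4.49 CPM in other cells of library 2. Its log2 ratios were -0.88 ± 0.55 and 0.29 ± 0.66, from 8 and 5 UMIs in other cells. Of the cell cycle inhibitors 1 of 4 was called, Cdkn2c, an INK4 inhibitor, at 47.9 CPM against 8.44 CPM in library 1 and 39.3 CPM against 18.8 CPM in library 2. Of the RB and E2F factors 4 of 9 were called, Rbl1, E2f2, E2f7 and E2f8, and of the MYC, MYB and FOXM1 factors 3 of 7, Mybl1, Mybl2 and Foxm1. Of the chromatin and tubulin genes 6 of 13 were called. E2f8, a repressor of the E2F family chosen here after its values were seen, stood in the Vpreb3 cluster at 241 CPM in cycling and 10.4 CPM in other cells of library 1 and at 274 CPM in cycling and 5.50 CPM in other cells of library 2.

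**Figure D5:**
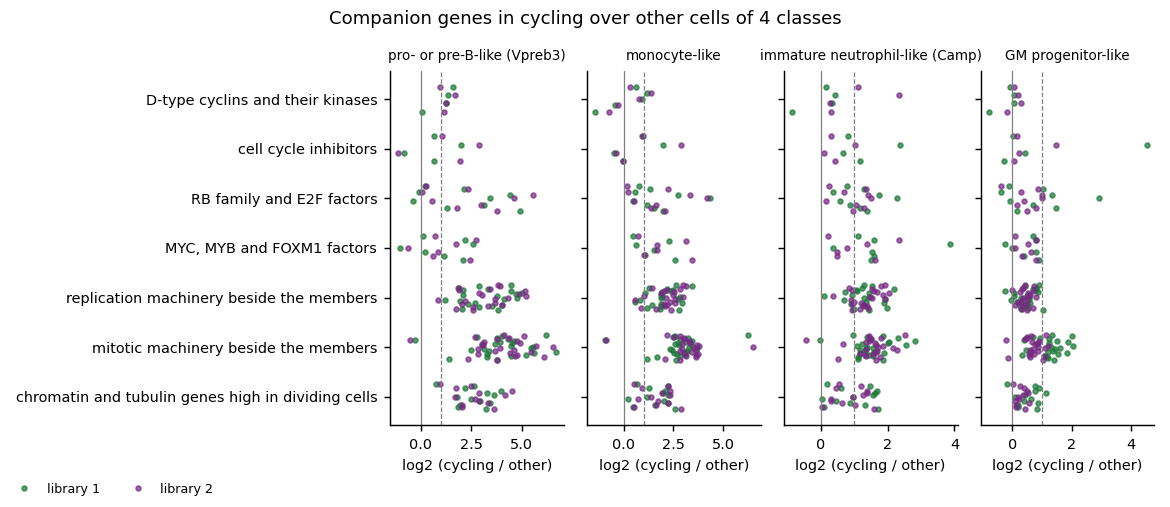
Log2 ratio of the level in cycling over other cells (x axis) for each tested companion gene, by list (y axis) and class (panels), with 1 point per gene and library and a dashed line at 2-fold. In the Vpreb3, monocyte-like and Camp panels the replication and mitotic lists lie mostly right of the dashed line, and in the progenitor panel most points lie left of it.

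The 10 other genes with the largest ratios in the Camp cluster included genes of division. Fancd2, of the Fanconi repair pathway, had 75 UMIs in cycling and 0 in other cells of library 1 and 81 in cycling and 0 in other cells of library 2. Esco2, a cohesin acetyltransferase, stood at 114 CPM in cycling and 13.5 CPM in other cells of library 1 and at 97.7 CPM in cycling and 13.5 CPM in other cells of library 2. Sgo1, a protector of centromeric cohesion, stood at 64.9 CPM against 5.07 CPM in library 1 and at 51.2 CPM against 7.18 CPM in library 2. Ccnf, a cyclin that acts as a ubiquitin ligase subunit, stood at 69.1 CPM against 10.1 CPM in library 1 and at 66.3 CPM against 9.87 CPM in library 2. The remaining 6 were Pidd1, Tcp11l1, Kpna2rt, Depdc5, Gm48604 and Lrr1, each with at most 2 UMIs in the other cells of a library.

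Fewer genes were called lower than higher in each of the 4 classes, and the examples given here were chosen after their values were seen. In the Camp cluster Olfm4, a gene of specific granules, stood at 110.0 CPM in cycling and 328 CPM in other cells of library 1 and at 48.5 CPM in cycling and 132 CPM in other cells of library 2. In monocyte-like cells H2-Ab1, of antigen presentation by MHC class II, stood at 267 CPM in cycling and 2213 CPM in other cells of library 1 and at 304 CPM in cycling and 2733 CPM in other cells of library 2. The 5 markers of granulocyte-monocyte progenitors, all present in these cells, summed to 1336 CPM in cycling and 372 CPM in other cells of library 1, and to 2169 CPM in cycling and 743 CPM in other cells of library 2, and their part in the result was not tested. In the Vpreb3 cluster Iglc2, a light chain constant gene, stood at 15.3 CPM in cycling and 295 CPM in other cells of library 1 and at 31.5 CPM in cycling and 677 CPM in other cells of library 2. Iglc2 and Iglc3 are near-identical copies, so their counts are uncertain.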

How the data were processed

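Single-cell RNA libraries of alveolar bone were deposited as UMI counts per gene and barcode, with near-empty barcodes included. FastQC 0.11.9 and the builds GRCh38 and mm10 appear in the submitters' processing notes without a role, and which aligner and counter made the counts is not given in the sources used here. Features without a symbol were left out (0.602% of all UMIs in library 1, 0.431% in library 2). Barcodes above the inflection of the barcode rank curve (810 and 983 UMIs), with at least 200 genes and at most 20% mitochondrial UMIs were kept. The doublet caller Scrublet marked 1 barcode per library by its own limit, so the 5% with the highest scores were removed, 493 and 617 barcodes.

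Counts were normalised per cell to 10000, and 2000 variable genes without cell cycle and haemoglobin genes, 30 principal components and 15 neighbours gave Leiden clusters at resolution 1 (scanpy 1.11.5, leidenalg 0.10.2, Python 3.11.15). A name required 3 or more markers, making up 50% or more of their list, at 3-fold or more over the remaining cells. The leading genes had at least 100 CPM, and that limit, the choice of the list with most markers, and the minimum of 50 other cells were set after seeing the data. The 38 genes and all lists were chosen with earlier results of these data known. Cells were thinned to 1000 UMIs with a fixed seed for cycling calls. Clusters with at least 30 cells in each library were ranked, and a gene was measured with 20 UMIs in some class of each library. For ratios between cycling and other cells 0.5 UMIs was added to each sum.

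All 38 genes were to be named, with values in full for the gene with most UMIs in each list and for those whose highest class was not the Car1 cluster or differed between the libraries. Of companion genes the 2 largest and 2 smallest ratios in the Camp cluster, and of other genes the 10 largest ratios there, were to be named. The scripts were tested on simulated data. Promoters came from RefSeq on GRCm38.p6.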

Additional observations from a re-analysis of the deposited data

How the results depend on the processing

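No paired analysis was possible because the labels put neither library in a group and give no shared replicate numbers. Each library is a single pool, so leaving out a replicate leaves no sample. The limit of 3 genes and the depth set the cycling share, and the shares of rare classes rest on few cells.

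Values of library 1 come first and of library 2 second. The cycling share (17.3% and 21.0%) was 27.1% and 30.2% with cells thinned to 2000 UMIs, 38.5% and 45.4% without thinning, 26.1% and 30.3% from 2 genes, 11.3% and 14.1% from 5 genes, and 11.6% and 14.48% from the 23 mitosis genes alone. It was 22.2% in library 2 with no doublets removed and 18.3% in library 1 with a minimum of 1500 UMIs. The haemoglobin share of cycling erythroid-like cells (15.05% and 35.1%) was 14.0% and 37.1% at 2000 UMIs, 14.9% and 42.2% without thinning, 15.3% and 36.6% from 2 genes, and 16.9% and 34.6% from 5. It was 14.4% and 40.4% when cells were thinned without haemoglobin, 14.46% and 33.8% with no doublets removed, 15.3% and 36.1% from 1500 UMIs, 15.2% and 35.4% at up to 10% mitochondrial UMIs, and 15.6% and 35.4% with cell cycle and haemoglobin genes allowed in clustering. The summed level of the Car1 cluster (12262 and 16005 CPM) was 14181 and 24405 CPM without haemoglobin, 11417.5 and 12053 CPM for the erythroid-like cells at Leiden resolution 0.5, and 19190.5 and 17805 CPM at resolution 2.0. It was 15183 CPM in library 2 with no doublets removed, and 12615 and 16240.4 CPM with those genes allowed. The balance of all cells (0.604 and 0.618) was 0.611 in library 1 with no doublets removed and 0.430 and 0.461 without Pcna. The 48 companions of the Camp cluster were 23 without thinning, 11 from 5 genes and 25 at resolution 0.5. The cause of these shifts was not tested. No companion count was obtained at 2000 UMIs, or with cell cycle genes allowed in clustering. Thinning without haemoglobin and leaving out Pcna were chosen after seeing the data. Leaving aside the cycling shares of single cell types, 47 summary values stayed within their counting interval or within 1.5 times a count, and 45 moved beyond it. Of the cycling shares of single cell types, 100 stayed within their interval and 116 moved beyond it.

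Over 13 settings the cycling share of erythroid-like cells ran from 65.5% to 93.6% in library 1 and from 57.5% to 88.0% in library 2, and that of mature neutrophil-like cells from 0% to 5.27% and from 0.0797% to 9.20%. The osteoblast-like share ran from 1.44% to 46.4% and from 1.32% to 36.7%, highest without thinning. That of granulocyte-monocyte progenitor-like cells ran from 42.3% to 96.9% and from 42.9% to 97.8%. Fibroblast or periodontal ligament-like cells ran from 0.541% to 44.2% and from 0.196% to 41.1%.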
